A study of Mus musculus with 2 samples.

Results

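The glycerophosphodiesterases and the enzymes that form their substrate glycerophosphocholine were followed in RNA of mouse intestine. The members were the probes of 10 genes (Gpcpd1, Gde1, Gdpd1, Gdpd2, Gdpd3, Gdpd4, Gdpd5, Enpp6, Pnpla6 and Pnpla7), found by gene name among the probes that are not controls. That gave 17 of 41174 probes, each printed once per array. The RNA compared was labelled as coming from male C57BL/6 mice with a gut-specific deficiency of GDE5, the protein of Gpcpd1, and from male wild-type mice. All were 20 weeks old and on a normal diet, with no other treatment. Each of 2 Agilent arrays carried both RNAs at the same time in different dyes, and the dyes were swapped between them: in replicate 1 the Cy3 dye marked the RNA labelled knockout, and in replicate 2 it marked the RNA labelled wild type. The series text mentions 5 mice. Not given in the labels are the promoter that drove the deletion, the part of Gpcpd1 that was removed, any pooling of mice, and whether the arrays share extracts. The RNA was of whole intestine, where a change in the number of cells of a type and a change in RNA per cell cannot be told apart.

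Phosphatidylcholine that loses both of its fatty acids becomes glycerophosphocholine, a water-soluble choline store that cells also use as an osmolyte. Pnpla6, known as neuropathy target esterase, and its relative Pnpla7 carry out the last deacylation. GDE5 and GDE2, the product of Gdpd5, split glycerophosphocholine into choline and glycerol 3-phosphate, while the membrane-anchored Enpp6 cuts on the other side of the phosphate and leaves phosphocholine. Other members of the glycerophosphodiesterase family act on other lipids: GDE1 (Gde1) on glycerophosphoinositol and glycerophospho-N-acylethanolamines, and GDE4 (Gdpd1) and GDE7 (Gdpd3) as lysophospholipases D that make lysophosphatidic acid. The labelled comparison asks what happens to transcripts of the gut when GDE5 is missing.

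The probe sequences are shown because the Gpcpd1 probes read different parts of the transcript. They are copied from the array design in the deposited files, 5′ to 3′, with positions on mm9. The probe nearest the 5′ end of the gene, which lies on the minus strand, is A_52_P407755 (chr2:132390343-132390402). Its capitals mark the letters AGGTATGT, which begin at its base 39 and resemble the start of an intron as it stands in unspliced RNA. The match is a description of the letters only. On the sense strand the letters were in 0.121% of the 41174 probes and in no other member probe. Probe A_52_P384069 (chr2:132359834-132359893) lies 30.4 kb further toward the 3′ end.
A_52_P407755: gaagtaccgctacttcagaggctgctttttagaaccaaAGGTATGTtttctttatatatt
A_52_P384069: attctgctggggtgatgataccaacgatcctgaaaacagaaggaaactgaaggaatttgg

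The remaining Gpcpd1 probes lie another 4.37 kb toward the 3′ end and overlap, A_51_P464791 at chr2:132355405-132355464 and A_52_P470017 at chr2:132355383-132355442. They share 38 of 60 bases. A_52_P470017 holds a run of 26 bases that begins at its base 4 and again at its base 29. A_51_P464791 holds that run 1 time. The design lists 4 RefSeq transcripts for each of A_52_P384069, A_51_P464791 and A_52_P470017, and none for A_52_P407755, which it ties only to a cDNA clone.
Repeated run: agtgtctcactacctagtaaacataa

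For 6 probes of the other members the coordinates cover more than the 60 bases of the probe, so their 60 bases adjoin each other only in spliced RNA, and they are shown for that reason. The span is 356 bases for the Gdpd1 probe A_52_P236088, 232 for the Pnpla7 probe A_51_P276235 and 145 for the Pnpla6 probe A_52_P674803. It is 2492 for the Gde1 probe, 174 for the Gdpd3 probe and 147 for the Gdpd2 probe. No member probe shared a run of 20 bases with a probe of another gene.
Gdpd1 A_52_P236088 (chr11:86848758-86849113, minus): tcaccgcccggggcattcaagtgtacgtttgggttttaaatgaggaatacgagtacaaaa
Pnpla7 A_51_P276235 (chr2:24908961-24909192, plus): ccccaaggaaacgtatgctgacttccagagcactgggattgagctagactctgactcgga
Pnpla6 A_52_P674803 (chr8:3537312-3537456, plus): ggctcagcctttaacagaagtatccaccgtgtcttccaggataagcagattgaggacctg
Gde1 A_51_P294515 (chr7:125832643-125835134, minus): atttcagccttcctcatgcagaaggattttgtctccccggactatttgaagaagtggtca
Gdpd3 A_51_P426875 (chr7:133914520-133914693, plus): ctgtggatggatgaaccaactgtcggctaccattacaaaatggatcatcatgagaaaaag
Gdpd2 A_51_P355957 (chrX:97933476-97933622, plus): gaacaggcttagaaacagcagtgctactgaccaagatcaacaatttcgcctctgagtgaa

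Ratios are log2, RNA labelled knockout over labelled wild type, given as mean ± SD (n = 2 arrays), and intensities are normalized brightness in arbitrary units with a constant of 50 added, which compresses the ratios of dim probes. Intensities were not normalized between the arrays, so whether the values of the genotypes overlap across arrays is a description only. The share of all tested probes without such overlap was not counted. Of 29046 probes tested, 17.4% were higher on both arrays, 18.8% lower on both and 63.9% went opposite ways. Across these probes, which are not independent, replicate 1 and replicate 2 had a correlation of r = -0.38. limma called 0 probes at an adjusted p under 0.05 (0.0% of those tested), with 353 at an unadjusted p under 0.05. With the scanner software's own ratios it called 80 (0.275%). All 13 epithelial marker genes were measured in the RNA, at 21 of 21 probes. Nothing in the labels says that the arrays carry RNA of separate animals, so the spread behind each p-value and interval may be technical.

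Gpcpd1 comes first because it is the gene labelled as missing. At 3 of its 4 probes both arrays gave a higher, not a lower, signal for the RNA labelled knockout, and every Gpcpd1 probe was well above background in both genotypes. At A_52_P384069 the intensity was 422 and 432 in the RNA labelled knockout, against 265 and 292 in the RNA labelled wild type (replicates 1 and 2). Both values of the RNA labelled knockout were above both of the RNA labelled wild type. The ratio was 0.62 ± 0.08, or 1.53-fold, with a 95% interval of 0.25 to 0.98 from limma, and the probe was not called (adjusted p = 1). Among all tested probes, 0.148% had ratios at least as high as its smaller ratio on both arrays, and 0.0585% were at least as far apart in the opposite direction. That smaller ratio was 0.56, just under the 0.58 that stands for 1.5-fold.

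The overlapping probes near the 3′ end were higher too, with a wider spread. At A_52_P470017 the intensity was 1255 and 1766 in the RNA labelled knockout, against 1031 and 837 in the RNA labelled wild type. The ratio was 0.28 in replicate 1 and 1.08 in replicate 2 (mean 0.68 ± 0.56, interval 0.03 to 1.34). At least as high as the smaller ratio on both arrays were 1.06% of all tested probes, with 0.289% as far apart in the opposite direction. At A_51_P464791 the intensity was 897 and 735 in the RNA labelled knockout, against 573 and 603 in the RNA labelled wild type. Its ratio was 0.64 in replicate 1 and 0.29 in replicate 2 (mean 0.47 ± 0.25, interval 0.03 to 0.90). Although they share most of their bases, the pair had their larger ratio on different arrays. A_52_P470017 sits in array row 484 and A_51_P464791 in row 67. A_52_P384069 is in row 484 too, with ratios of 0.67 in replicate 1 and 0.56 in replicate 2. After a smooth trend over the array surface was removed the means were 0.65 for A_52_P470017 and 0.44 for A_51_P464791. Means of both arrays cannot show whether the difference between the arrays remained, and a part of array position in it was not tested.

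**Figure D1:**
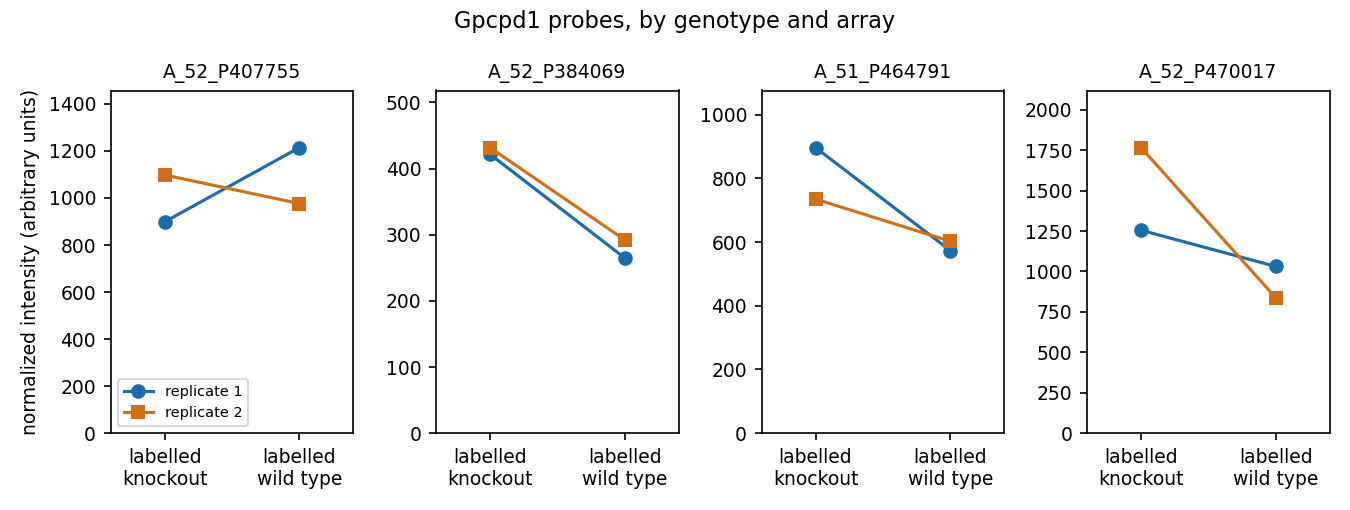
Normalized intensity (arbitrary units, axes from 0) of the Gpcpd1 probes in the RNA labelled knockout (left) and labelled wild type (right), with a line for each array and the probes in order from the 5′ end of the gene. At A_52_P384069, A_51_P464791 and A_52_P470017 both lines go down toward the RNA labelled wild type, and at A_52_P407755 replicate 1 goes up and replicate 2 down.

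The probe nearest the 5′ end stood apart from the others. At A_52_P407755 the intensity was 899 and 1098 in the RNA labelled knockout, against 1214 and 976 in the RNA labelled wild type, so the genotypes overlapped. Its ratio was -0.43 in replicate 1 and 0.17 in replicate 2 (mean -0.13 ± 0.43, interval -0.68 to 0.42). The other probes were above it on both arrays. A_52_P384069 exceeded it by 1.105 in replicate 1 and 0.39 in replicate 2, A_51_P464791 by 1.08 and 0.12, and A_52_P470017 by 0.72 and 0.91 on the log2 scale. This difference between probes was not tested, and the probe differs from the others in position, in its transcript records and in its letters at the same time.

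**Figure D2:**
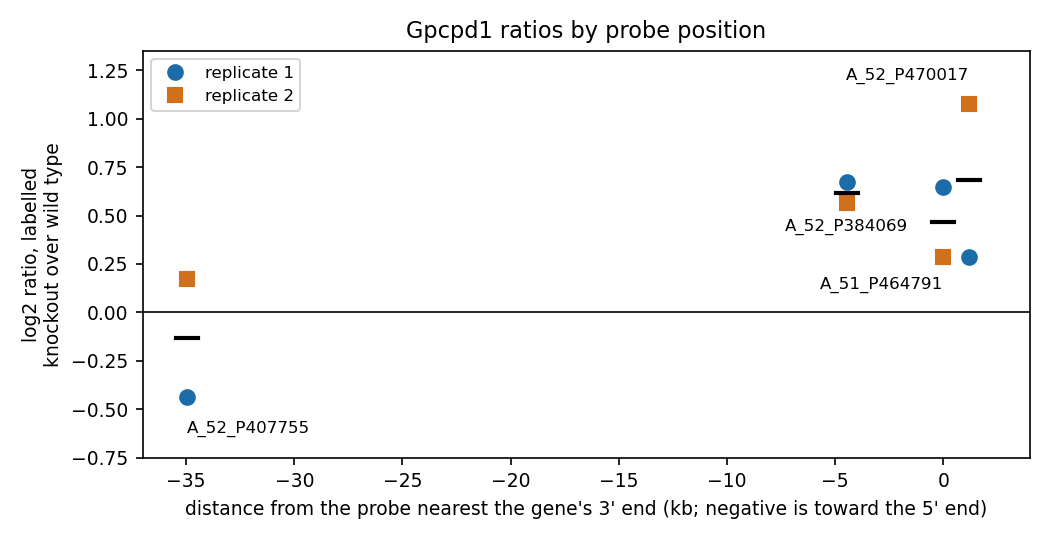
Log2 ratio of the RNA labelled knockout over wild type (y axis) against the distance from the 3′-most Gpcpd1 probe in kb (x axis), with circles for replicate 1, squares for replicate 2 and bars for the mean. The overlapping probes at the 3′ end are drawn side by side so that both can be seen. The probe at the 5′ side has a mean of -0.13, and the others lie between 0.47 and 0.68.

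No Gpcpd1 probe was lower on both arrays in the tissue labelled knockout. A_52_P407755 was lower in replicate 1 alone (-0.43), and its interval of -0.68 to 0.42 includes a 1.5-fold lower signal. Since the deleted exons are not given, it is not known whether any probe lies in them, and the probes may not check the labels at all. Every direction below therefore rests on the dye labels alone.

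The other enzymes that act on glycerophosphocholine showed a ratio near 0 or no signal. Gdpd5, which encodes GDE2 and also releases anchored proteins from the cell surface, was read by probe A_51_P468464 (chr7:106609102-106609161, plus). Its intensity was 377 and 426 in the RNA labelled knockout, against 363 and 408 in the RNA labelled wild type. The ratios were 0.05 and 0.06, nearly the same on both arrays, with a mean of 0.06 ± 0.01 and an interval of -0.30 to 0.42. The interval ends short of a 1.5-fold difference (0.58) on either side, and the values of the genotypes overlapped.

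Enpp6 could not be measured. Its probes A_52_P416280 (chr8:48179484-48179543) and A_52_P68087 (chr8:48154284-48154343) were not well above background in either genotype on either array. Before correction, A_52_P416280 had a brightness of 31.6 in Cy3 and 51.6 in Cy5 in the RNA labelled knockout, over a local background of 26 and 40. In the RNA labelled wild type it had 48.4 in Cy5 and 30.4 in Cy3, over a background of 42 and 24. The brightness at A_52_P68087 was 27.8 and 50.5 in the RNA labelled knockout, over a background of 25 and 43. In the RNA labelled wild type it was 51.0 and 27.9, over a background of 49 and 25. No ratio is given for either probe.

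The family members that act on other lipids differed by less than 1.5-fold on average at each of their tested probes. Gdpd1 was read by a pair of probes that differed. At A_52_P236088, which crosses a splice junction, the intensity was 11055 and 9250 in the RNA labelled knockout, against 7729 and 8421 in the RNA labelled wild type. Both values of the RNA labelled knockout were the higher ones (0.33 ± 0.27, interval -0.12 to 0.77). Of all tested probes, 4.66% were at least as high as its smaller ratio on both arrays, with 2.14% as far apart in the opposite direction. At A_52_P75465 (chr11:86847492-86847551, minus), further toward the 3′ end, the intensity was 23725 and 22751 in the RNA labelled knockout, against 23671 and 22503 in the RNA labelled wild type. That probe had ratios of 0.00 and 0.02 (0.01 ± 0.01, interval -0.35 to 0.37). The probes of Gdpd1 thus gave unlike ratios, and the difference between them was not tested.

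Gdpd3, the relative of Gdpd1, was the only tested member probe lower on both arrays in these ratios, with a small difference. Its intensity was 138 and 134 in the RNA labelled knockout, against 139 and 149 in the RNA labelled wild type (-0.08 ± 0.10, interval -0.46 to 0.29). The values of the genotypes were separated by little, and 18.8% of all tested probes were lower on both arrays. Gde1 went opposite ways. Its intensity was 744 and 542 in the RNA labelled knockout, against 636 and 840 in the RNA labelled wild type, with ratios of 0.23 and -0.63 (-0.20 ± 0.61, interval -0.90 to 0.49). In the scanner software's ratios Gde1 was lower on both arrays, at -0.15 and -0.38, while Gdpd3 went opposite ways there, at 0.02 and -0.23.

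Gdpd2 encodes GDE3, a membrane enzyme known from osteoblasts. Its intensity was 168 and 137 in the RNA labelled knockout, against 143 and 169 in the RNA labelled wild type, and its ratios of 0.23 and -0.31 had opposite signs (-0.04 ± 0.38, interval -0.55 to 0.48). The brighter genotype was the one in Cy3 on each array, as at Gde1. Gdpd4 was not measurable with probe A_52_P640616 (chr7:105197473-105197532, plus). Its brightness before correction was 26.5 and 46.4 in the RNA labelled knockout, against 47.0 and 25.6 in the RNA labelled wild type, over local backgrounds of 27 and 48.5, and of 46 and 25.5. No reading was more than 1 unit above its background.

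The enzymes that form glycerophosphocholine were higher at some probes. Pnpla6 was read by 3 probes along the gene (chromosome 8, plus strand). At A_52_P672232 (chr8:3540126-3540185) the intensity was 391 and 364 in the RNA labelled knockout, against 302 and 279 in the RNA labelled wild type. The ratios were 0.37 and 0.38, so that the probe was about 1.3-fold higher on each array (0.38 ± 0.01, interval 0.02 to 0.74, limma adjusted p = 1). Its SD was the smallest among the tested member probes, against a median SD of 0.16 over all tested probes, and 0.513% of tested probes were at least as high on both, with 0.131% as far apart in the opposite direction.

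The other Pnpla6 probes had smaller mean ratios, and the difference between probes was not tested. At A_52_P674803, a dim probe, the intensity was 92.6 and 98.3 in the RNA labelled knockout, against 86.7 and 89.9 in the RNA labelled wild type (0.11 ± 0.02, interval -0.25 to 0.47). At A_51_P301891 (chr8:3544051-3544110), nearest the 3′ end, it was 1133 and 705 in the RNA labelled knockout, against 694 and 1104 in the RNA labelled wild type. The ratios of 0.71 and -0.65 cancelled to 0.03 ± 0.96, and the brighter value was in Cy3 on both arrays. The design lists 4 Ensembl transcripts for A_51_P301891, 4 for A_52_P674803 and only 1 for A_52_P672232, and lists no RefSeq transcript for any of them.

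Pnpla7, a lysophospholipase of the same family, was higher on both arrays, by very unequal amounts. Its intensity was 437 and 440 in the RNA labelled knockout, against 242 and 430 in the RNA labelled wild type. The RNA labelled knockout gave nearly the same value on both arrays, while the RNA labelled wild type did not. The ratios were 0.85 and 0.04 (0.44 ± 0.58, interval -0.22 to 1.11).

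**Figure D3:**
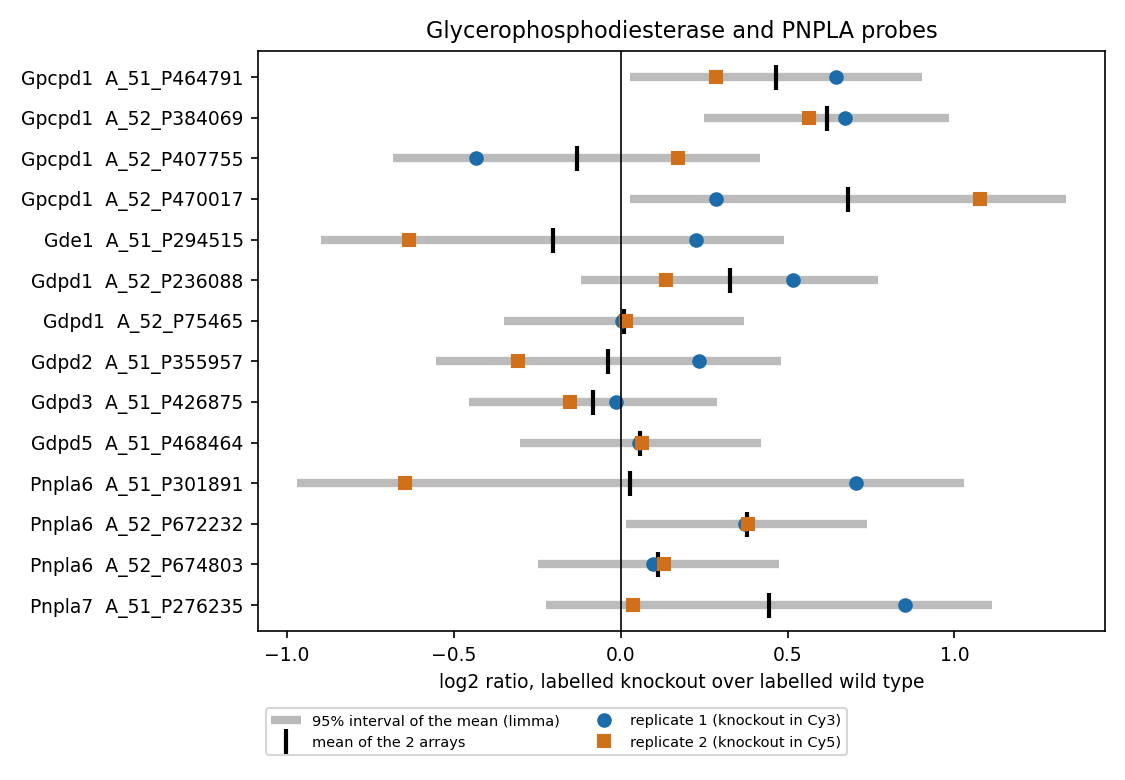
Log2 ratio, labelled knockout over labelled wild type (x axis), for the 14 tested member probes (y axis), with circles for replicate 1, squares for replicate 2, black ticks for the mean and grey bars for limma's 95% interval. The intervals of 4 probes lie above 0, those of A_51_P464791, A_52_P384069 and A_52_P470017 of Gpcpd1 and of A_52_P672232 of Pnpla6.

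Taken over the family, 14 of the 17 probes and 8 of the 10 genes could be tested. Of these probes, 9 of 5 genes were higher on both arrays, against 17.4% of all tested probes, 1 was lower on both and 4 went opposite ways. Without Gpcpd1 it was 6 of 10. The probes of a gene are not independent, and A_52_P75465 counts among the 9 with a ratio near 0. The median ratio of the tested member probes was 0.08, and 0.04 without Gpcpd1, against -0.01 over all tested probes. No member was called by limma, and 4 had an unadjusted p under 0.05, all higher, against 0.961% of all tested probes in that direction. No member was at least 1.5-fold apart on both arrays, which 0.12% of tested probes were in the higher and 0.0482% in the lower direction. On replicate 1 alone 4 member probes were at least 1.5-fold apart, against 4.67% of all tested probes, and on replicate 2 alone 3 were, against 3.44%. With the scanner software's ratios, A_52_P384069 was at least 1.5-fold higher on both arrays, as were 0.572% of all tested probes, and 20.7% were higher on both. The scanner software's error of a ratio at the tested member probes ran from 0.20 to 0.24 on the log2 scale.

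**Figure D4:**
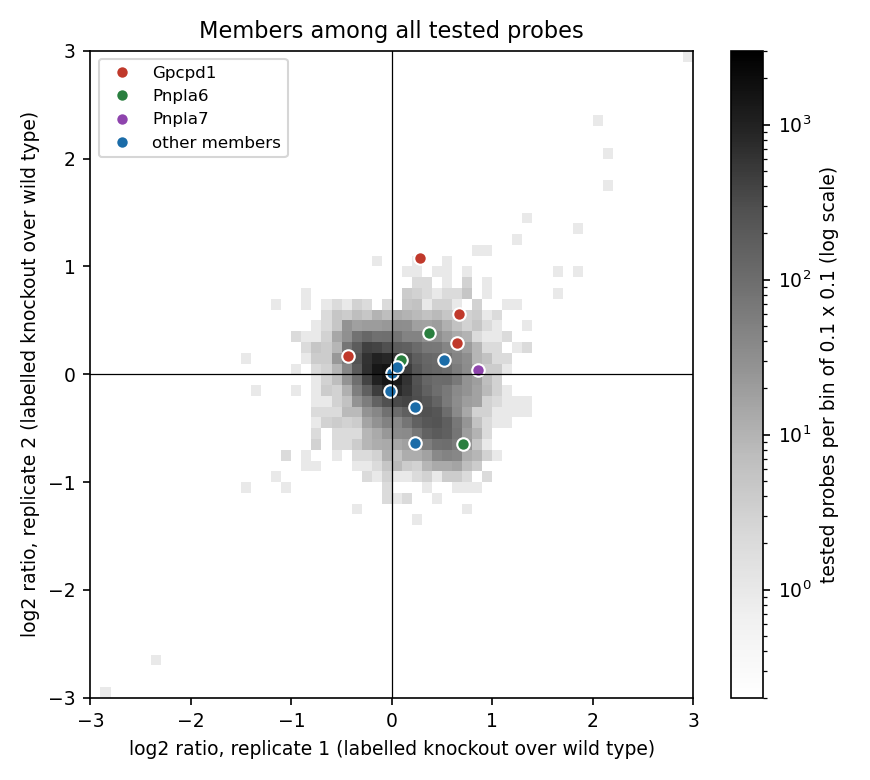
Log2 ratio of the RNA labelled knockout over wild type in replicate 1 (x axis) and replicate 2 (y axis) for all tested probes, as grey bins with the number of probes on a log scale, and for the 14 tested member probes as coloured points. Values beyond the axes are drawn at the edge. The grey cloud runs from upper left to lower right (r = -0.38), and 3 of the 4 Gpcpd1 probes lie in its upper right.

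Lists of the surrounding pathway were counted next. Of 24 tested probes of lysophospholipase and deacylation genes, 2 were higher on both arrays, 5 lower and 17 opposite (median -0.04). Both higher probes belong to Plb1, a brush border phospholipase that also removes the remaining acyl chain from lysophosphatidylcholine, and so can also make glycerophosphocholine. At A_52_P686218 the intensity was 1011 and 1059 in the RNA labelled knockout, against 229 and 322 in the RNA labelled wild type (1.93 ± 0.30, 3.81-fold, chr5:32666473-32666532). Its other tested probe, dim at 73.4 and 69.6 in the RNA labelled knockout, against 61.1 and 60.1 in the RNA labelled wild type, was at 0.24 ± 0.04. Among the tested genes of these pathway lists, only Plb1 was at least 1.5-fold apart on both arrays after normexp and loess, and limma did not call it (adjusted p = 1). With the scanner software's ratios both Plb1 probes were called, at 2.13 ± 0.19 for A_52_P686218 (limma adjusted p = 2.68e-05) and 1.62 ± 0.41 for the dim A_52_P311519 (limma adjusted p = 0.00115). In the RNA labelled wild type the dim probe was at the level of the Enpp6 probes (58.9 to 64.1), which could not be measured. A probe could be tested through 1 genotype alone, so the call of the dim probe is not separate support.

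Choline uptake and use, which takes up the choline that GDE5 releases, had 11 of 34 tested probes higher on both arrays, 7 lower and 16 opposite (median 0.05). Choline kinase Chka had a probe at 0.49 ± 0.36 (A_52_P61903) and others from 0.17 to 0.19. The choline phosphotransferase relative Cept1 was at 0.23 ± 0.03 at its dim probe and 0.00 ± 0.15 at the other. With the scanner software's ratios the dim Cept1 probe was at 0.97 ± 0.32, and Phospho1, a phosphatase of phosphocholine named here after its value was seen, at 0.73 ± 0.13 (0.21 after normexp and loess), both at least 1.5-fold on both arrays. The choline carrier Slc44a1 was at -0.29 ± 0.17 and -0.08 ± 0.35. Of 36 probes of glycerol 3-phosphate handling, which uses the other product of GDE5, 6 were higher on both, 4 lower and 26 opposite (median -0.02). The acyltransferase Agpat4 was at 0.45 ± 0.29 and 0.18 ± 0.19 at overlapping probes, Agpat5 at -0.09 ± 0.04 and 0.04 ± 0.49, and Pgp, which hydrolyses glycerol 3-phosphate, at -0.13 ± 0.09 and -0.01 ± 0.30.

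Osmolyte genes and targets of the tonicity factor NFAT5 had 3 of 28 probes higher on both arrays, 5 lower and 20 opposite (median -0.01). The inositol carrier Slc5a3 was at -0.16 ± 0.02 and S100a4 at 0.14 ± 0.00, and the heat shock gene Hspa1a, whose copy Hspa1b is near-identical, was at -0.24 ± 0.02 and 0.21 ± 0.18 at overlapping probes. The N-acylethanolamine and lysophosphatidic acid genes handle lipids related to those of Gde1, Gdpd1 and Gdpd3. Of their 14 probes, 1 was higher on both, 2 lower and 11 opposite (median 0.00). The receptor Lpar3 was at 0.23 ± 0.05, Lpar1 at -0.13 ± 0.10 and Lpar2 at -0.09 ± 0.00.

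Relatives of Enpp6 had 2 of 9 probes higher on both arrays and 0 lower (median 0.04). Enpp7, the alkaline sphingomyelinase of the brush border, had an intensity of 178 and 156 in the RNA labelled knockout, against 122 and 120 in the RNA labelled wild type (0.46 ± 0.12). With the scanner software's ratios it was at 0.84 ± 0.21, at least 1.5-fold higher on both arrays. Enpp4 was at 0.31 ± 0.07 and 0.09 ± 0.14. Relatives of Pnpla6 had 1 of 7 probes higher and 1 lower on both (median -0.04), with Pnpla3 at 0.12 ± 0.09 and Pnpla8 between -0.18 ± 0.02 and 0.01 ± 0.03 over its 3 tested probes. Of 6 probes of anchored proteins that GDE2 can release or that are related to them, 1 was higher and 2 lower on both (median -0.02), with Gpc3 at 0.11 ± 0.04, Gpc2 at -0.04 ± 0.04 and Gpc4 at -0.05 ± 0.03 and 0.00 ± 0.10. No probe of these 8 lists was called by limma after normexp and loess, and 2, both of Plb1, were called with the scanner software's ratios. At a limma unadjusted p under 0.05 stood 1.22% of all tested probes. Plb1 A_52_P686218 (limma unadjusted p = 0.000309) and Enpp7 (limma unadjusted p = 0.0284) were among them. The list probes under that threshold were not counted, so these 2 cannot be set against that share.

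Markers of some other cells were higher on the same arrays. Of 16 tested skeletal muscle probes, 14 were higher on both arrays and 2 lower, against 17.4% and 18.8% of all tested probes. A further 6 probes were not well above background on both arrays for either genotype. A probe could be tested through 1 genotype alone, so a dim probe can enter because that genotype is high. How many of the 16 entered so was not counted. The summed intensity of the 16 tested probes was 5401 and 4969 in the RNA labelled knockout, against 2994 and 2864 in the RNA labelled wild type. The myosins Myh4 (2.18 ± 0.23) and Myh8 (2.10 ± 0.02) were among the higher ones. The median of the skeletal muscle probes was 0.62 and none was called. With the scanner software's ratios the median was 1.65 and 13 were called, against 0.275% of all tested probes. With the array surface removed 2 were called, of 5 among all tested probes. The dim Myh1, at 70.4 and 63.4 in the RNA labelled wild type, was at 0.78 ± 0.06, and at 3.07 ± 0.08 with the scanner software's ratios. All 9 tested B cell probes were higher on both, with a summed intensity of 8819 and 8491 in the RNA labelled knockout, against 5841 and 5990 in the RNA labelled wild type. Smooth muscle (1 of 14 probes higher on both, 2 lower), enteric neuron and glia (1 of 9 higher, 1 lower) and exocrine pancreas markers (0 of 5 higher, 1 lower) mostly went opposite ways. Epithelial markers had 5 of 21 probes higher and 4 lower on both, T cell markers 5 of 9 higher and 0 lower, and colon markers 2 of 4 higher and 0 lower. Gpcpd1 is known to be expressed in skeletal muscle too, and the part of these cells in the Gpcpd1, Pnpla6 and Pnpla7 values was not tested.

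The direction of the named values was then set against the processing. The Gpcpd1 probe A_52_P384069 ran from 0.44, with spots marked as outliers kept in the background fit, to 0.82 with the scanner software's ratios (0.77 and 0.87 on the arrays). Its smallest adjusted p over these alternatives was 0.13, with the scanner software's ratios. Over the same alternatives A_52_P470017 ran from 0.56 to 0.70 (with the scanner software's ratios 0.02 in replicate 1 and 1.23 in replicate 2), A_51_P464791 from 0.36 to 0.49, A_52_P407755 from -0.21 to -0.11, Pnpla6 A_52_P672232 from 0.24 to 0.44, and Pnpla7 from 0.38 to 0.52. Those 6 probes kept the sign of their mean in every alternative that used both arrays, and limma called no member probe in any of them. The alternatives process the same arrays again and are not independent. A_52_P407755 went opposite ways on the arrays, at -0.43 and 0.17, so only its mean has a sign.

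**Figure D5:**
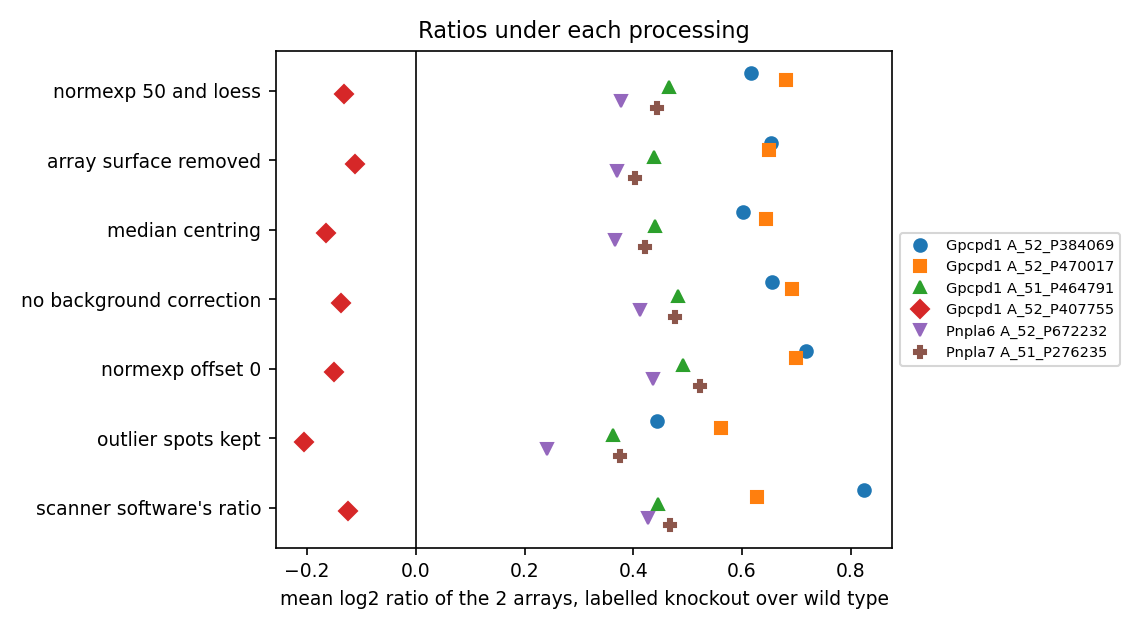
Mean log2 ratio of the arrays, RNA labelled knockout over wild type (x axis), for the Gpcpd1 probes, Pnpla6 A_52_P672232 and Pnpla7 under 7 ways of processing (y axis). A_52_P407755 lies left of 0 and the others right of it in every row, with the lowest positive value, 0.24, at Pnpla6 when outlier spots were kept.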

How the data were processed

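The authors' deposited scanner files give, per the file headers, the mean intensity of each spot and the median intensity of its local background in Cy3 and Cy5, from Agilent Feature Extraction 11.5.1.1. The submitters' processing notes name version 9.5. The deposited log10 ratio, Cy5 over Cy3, was background-subtracted, detrended and dye-normalized by that software, per the file headers. The deposited value table holds the same log10 ratios rounded (largest difference 5e-04, column medians 0) and not turned for the dye swap, with 0 further columns. The deposited outlier and background flags are other values, of 0 or 1, set by the scanner software per the file headers.

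Background was corrected with normexp (offset 50) after leaving out spots marked as feature outliers or as having a non-uniform background, ratios were normalized by loess with control spots at weight 0, and spots of a probe were averaged (R 4.3.3, limma 3.58.1). Replicate 1 was turned to the RNA labelled knockout over wild type. Every probe was kept apart, and 29046 were tested, those that the scanner marked as well above background on both arrays for at least 1 genotype. limma's lmFit and eBayes tested the mean ratio against 0, with Benjamini-Hochberg adjustment over all of them; 3.04 prior degrees of freedom joined the 1 residual one. A dye term would leave no residual degree of freedom. Median intensity was 98.7 and 103 in Cy3 and 106 and 105 in Cy5, and none of the spots was saturated. The number of arrays limits the precision. Both arrays are on one slide, so no slide effect could be tested. The code of the fit was run on simulated ratios with noise independent between the arrays and no dye effect. The real ratios of the arrays had r = -0.38, so that run does not show how the fit performs on them. A first run had also left out background population outliers (27720 probes tested); the narrower set of marks was chosen after its results were seen, and the wider one is given as an alternative.

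List genes were named through RefSeq accessions (GRCm38.p6, names only) or the file. Named in each list are the genes at least 1.5-fold apart on both arrays, or else up to 3 with the largest smaller ratio. Members and lists were chosen with earlier results of these data known. Of the cell type lists, the genes named were chosen after their values were seen.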

Additional observations from a re-analysis of the deposited data

How the results depend on the processing

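The count of 0 probes called by limma became 80 with the scanner software's ratios and with the deposited value table, 30 with a normexp offset of 0 and 5 with the array surface removed. The count of 49 probes that differed 1.5-fold or more between genotypes on both arrays became 239, 237 and 117 with the scanner software's ratios, the value table and offset 0, and 23 with outlier spots kept. On a single array it was 999 to 1356. The count in the same dye direction on both arrays, which the genotype cannot give, was 244, and 158 with the scanner software's ratios. The cause of these shifts was not tested. With background population outliers also left out, an alternative chosen after seeing the data, 0 probes were called, 48 differed by 1.5-fold on both arrays, and every tested member kept its sign. Of 148 member values under alternatives that kept both arrays, 12 of 4 probes changed sign. Gdpd1 A_52_P75465 was at -0.003 with the scanner software's ratios and the value table, -0.006 with offset 0 and -0.059 with median centring. Gdpd2 was at 0.11 with the scanner software's ratios and the value table and 0.062 with outlier spots kept. Gdpd5 was at -0.013 with outlier spots kept. Pnpla6 A_51_P301891 was at -0.035 with the scanner software's ratios and the value table, -0.002 with median centring and -0.02 with the surface removed. Single arrays ranged from -0.43 to 0.17 for Gpcpd1 A_52_P407755, -0.63 to 0.23 for Gde1, -0.31 to 0.23 for Gdpd2 and -0.65 to 0.71 for Pnpla6 A_51_P301891. The medians of the 8 pathway lists moved by at most 0.04 with the scanner software's ratios or the array surface removed (16 values). The skeletal muscle marker median became 1.65 with the scanner software's ratios, against 0.62, and the B cell median 0.56, against 0.40. No further pairing was possible because each ratio that limma tested already pairs both genotypes within an array. Signal over background limited Enpp6 and Gdpd4, and 2 arrays limit the test.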
